A study of Mus musculus with 6 samples.

Results

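The amino acid transporter genes of this mouse embryonic stem cell profile are the 58 genes whose symbols place them in the solute carrier families Slc1, Slc6, Slc7, Slc36, Slc38 and Slc43, out of 18312 genes measured. They were found by symbol, and the choice was made with earlier results of these data known. The heavy chains Slc3a1 and Slc3a2 were part of the same rule and were not analysed here. The rule also took in Slc7a6os, which is named for its position opposite Slc7a6 and is not a transporter, so 57 of the 58 are transporter genes. The study set out to find mRNA targets of Brf1 and Brf2, the AU-rich element binding proteins of the genes Zfp36l1 and Zfp36l2. Its labels list 6 libraries of wild-type E14 cells, a line of 129/Ola background kept in 15% serum with LIF at 1000 U/ml. There were 2 libraries of total RNA, 2 of RNA pulled down from cytoplasmic extract by an anti-Brf1/2 antibody, and 2 of a control pull-down by rabbit IgG. The table analysed here holds 1 profile of 22625281 counts, and no column in it names a library. No group could therefore be assigned, no comparison between groups was made, and all values come without replicates. A level here is a level in that profile and may be one of immunoprecipitated RNA.

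Cells cannot make all of the amino acids that they need, and amino acids cross membranes largely through carriers. Slc38 and part of Slc1 bring in small neutral amino acids and glutamine with sodium. Most Slc7 light chains work as exchangers that trade one amino acid for another and need an Slc3 heavy chain to reach the cell surface, whereas its cationic branch works without one. Slc6 holds carriers of taurine, creatine, glycine and neurotransmitters, Slc36 couples transport to protons, and Slc43 carries large neutral amino acids by facilitated diffusion. Imported amino acids feed protein synthesis, and in lysosomes and cytosol they are sensed by the kinase complex mTORC1. Lack of an amino acid activates the kinase Gcn2 and the transcription factor Atf4, whose targets include several transporters.

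Markers of the labelled cell type were high. All 6 embryonic stem cell markers had at least 40.6 FPKM (fragments scaled to the effective length of the transcript and to the total count), with Pou5f1 at 605. Of 6 fibroblast markers, Thy1 alone reached 1 FPKM, at 3.74. None of 2 measured astrocyte markers and none of 4 measured primitive endoderm markers did. On the model length, which is the length of the transcript model in the deposited table and replaces the effective length, 2 fibroblast markers and 1 astrocyte marker did, with Col1a1 at 1.87 and Aldh1l1 at 1.63. Of 6 neuron markers, Stmn2 had 97.4 FPKM and Syp 3.16, and the other 4 lay between 0.240 and 0.692.

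Transporter mRNA was concentrated in a few genes of Slc7 and Slc38. The 58 genes held 64805 counts, 0.286% of the total (Wilson 95% interval 0.284 to 0.289). Their summed level was 526 FPKM, of which Slc7, with Slc7a6os included, held 42.99% and Slc38 39.3%. Slc6 followed with 10.6%, Slc1 with 4.89%, Slc43 with 1.70% and Slc36 with 0.489%. Of the members' counts, Slc38 held 44.3% and Slc7 35.5%. The 3 highest genes, Slc38a2, Slc7a3 and Slc38a4, held 41.3% of the sum. The 10 highest, which add Slc7a7, Slc7a11, Slc7a5, Slc6a6, Slc38a1, Slc7a6os and Slc7a6, held 80.3%.

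Most members were low. Of the 58 genes, 27 (46.6%) had at least 1 FPKM, against 56.0% of all genes. On the model length of the transcripts in place of the effective length, the same number had at least 1 FPKM, against 58.2% of all genes. At least 5 FPKM was reached by 18 members (31.0%), against 38.3% of all genes. At least 10 FPKM was reached by 13 members (22.4%), against 27.5% of all genes. The median over the members was 0.709 FPKM and that over all genes 1.94. A further 25 members had counts but less than 1 FPKM, and 2 of these, Slc6a12 and Slc36a2, rested on a single count each. The remaining 6 had no count, which is 10.3% of members against 21.0% of all genes. These were Slc6a5, Slc6a20a, Slc7a12, Slc36a3, Slc38a8 and Slc38a11. The limit that a count of 0 allows, 3 counts, ran from 0.0330 FPKM for Slc6a5 to 0.118 for Slc7a12. Bounds on FPKM below are those of the authors' table, and like these limits and the Wilson intervals they cover counting error only.

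**Figure D1:**
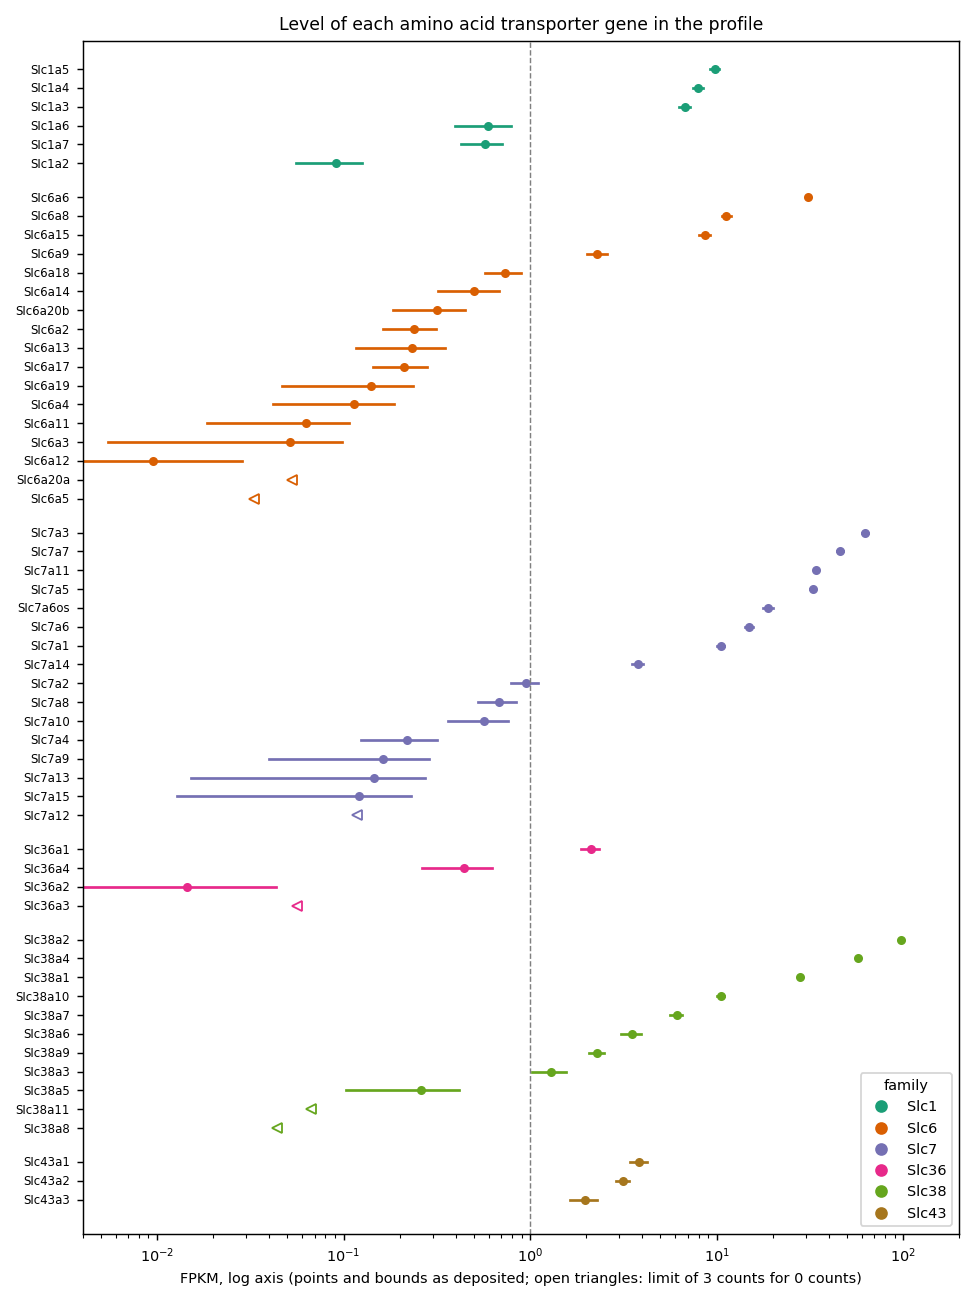
FPKM of 57 of the 58 genes on a log axis, by family, with the authors' bounds as bars. Open triangles mark the limit of 3 counts for the 6 genes without counts, bars that start at the left edge reach 0, and the dashed line is 1 FPKM. Each family spans from a few genes on the right to a tail on the left, except Slc43, whose 3 genes all lie above 1 FPKM.

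Slc38, the sodium-coupled neutral amino acid transporters, had the highest single gene and, at 1 FPKM, the broadest presence among the larger families. Of 11 members, 8 (72.7%) had at least 1 FPKM, against 56.0% of all genes. At least 5 FPKM was reached by 5 of the 11, against 7 of the 16 Slc7 rows and 38.3% of all genes, so the breadth depends on the threshold. The dominant member was Slc38a2, a carrier of small neutral amino acids that is known to be induced when amino acids are short. It had 97.8 FPKM (96.1 to 99.6) from 12577 counts and ranked at place 574 of all genes. It held 47.3% of the family's summed FPKM. Slc38a4, which carries neutral and some cationic amino acids and is an imprinted gene expressed from the paternal allele, had 56.9 FPKM (55.6 to 58.2, 7587 counts). Slc38a1, a glutamine carrier, had 27.9 FPKM (27.1 to 28.7, 5060 counts). These 3 genes lie next to each other on chromosome 15, and together they held 88.4% of the family's sum. Their bounds do not overlap, so within counting error Slc38a2 was 1.72 times Slc38a4 and 3.50 times Slc38a1.

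The rest of Slc38 formed a descending series. Slc38a10 had 10.5 FPKM (10.1 to 11.0). Slc38a7, a lysosomal glutamine exporter, had 6.10 (5.64 to 6.56), and Slc38a6 had 3.50 (3.08 to 3.92). Slc38a9, the lysosomal arginine sensor that acts on mTORC1, had 2.29 (2.08 to 2.50). Slc38a3, a glutamine carrier best known from liver, was the member nearest above the 1 FPKM threshold, at 1.29 (1.03 to 1.55, 97 counts). Slc38a5 had 0.260 FPKM from 11 counts. No neighbours in this order had overlapping bounds down to Slc38a5.

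Slc7 had the largest summed FPKM, 226, spread over more genes than in Slc38. That sum includes 18.9 FPKM of Slc7a6os, close to the whole of its lead over Slc38 (207 FPKM). On the model length the sums were 280 and 273, and Slc7a6os gave 26.8 of the former, more than the difference. By counts Slc38 was ahead, with 44.3% of the members' counts against 35.5%. Of the 16 Slc7 rows, 8 (50%) had at least 1 FPKM, against 56.0% of all genes, and 7 of 15 without Slc7a6os. The dominant member by FPKM was Slc7a3, a carrier of arginine, lysine and ornithine, at 62.3 FPKM (60.3 to 64.4, 3829 counts), which was 27.6% of the family's sum. The other carriers of its cationic branch were lower. Slc7a1, the widely expressed cationic carrier, had 10.5 FPKM (10.1 to 11.0, 1952 counts), so Slc7a3 was 5.92 times as high. Slc7a2 had 0.947 (0.791 to 1.104, 147 counts), and its bounds span the threshold of 1. Slc7a4 had 0.219, and Slc7a14 had 3.78 (3.52 to 4.03).

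The light chains that pair with Slc3a2 were the other large part of Slc7. Slc7a7, which exports cationic amino acids in exchange for neutral ones with sodium, had 45.8 FPKM (44.1 to 47.4, 3070 counts). Its close relative Slc7a6 had 15.0 (14.2 to 15.7, 1576 counts), so Slc7a7 was 3.06 times as high. In the annotation, 7.24% of the exonic bases of Slc7a7 overlap Oxa1l on the opposite strand, which had 15.2 FPKM, and strand handling is not stated for the table. Slc7a11, which brings in cystine in exchange for glutamate and so supplies glutathione synthesis, had 34.1 FPKM (33.2 to 35.0, 6052 counts). Slc7a5, the main importer of leucine and other large neutral amino acids, had 32.8 (31.8 to 33.8, 4412 counts). The bounds of these last 2 overlap, so their order is not settled by this profile.

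The other Slc7 light chains were below 1 FPKM. Slc7a8, the second large neutral amino acid exchanger, had 0.684 FPKM (0.526 to 0.842), and Slc7a5 was 47.9 times as high. Slc7a10, a carrier of small neutral amino acids and D-serine, had 0.563 from 32 counts. In the annotation, 11.2% of its exonic bases overlap Lrp3 on the opposite strand, which had 210 counts. Slc7a9, the kidney and gut light chain that pairs with Slc3a1, had 0.163 from 7 counts, and Slc7a13 had 0.145 from 5. Slc7a15 had 0.121 from 5 counts. From Slc7a9 to Slc7a15 the bounds of neighbours overlap. Slc7a6os, the gene that is not a transporter, had 18.9 FPKM (17.7 to 20.1, 923 counts), a little above Slc7a6. In the annotation these genes lie on opposite strands 2010 nt apart, and their exons do not overlap.

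The promoters of Slc7a11, Slc7a7 and Slc1a4 are shown because they hold the core of the element through which Atf4 acts in amino acid shortage. They were the only members found to hold it, and Slc7a11 and Slc7a7 were also among the highest members. The core searched was TGATGNAA on both strands, in windows from 250 bases before to 50 after each annotated start, from RefSeq on GRCm38.p6, 5′ to 3′ on the gene's strand. Capitals mark the matches. The table of windows covers 41 of the 58 members. Members without a window included Slc1a5, Slc6a2, Slc6a6, Slc6a8, Slc6a15, Slc6a18, Slc7a2, Slc7a3, Slc7a4, Slc7a5, Slc7a12, Slc7a13, Slc36a2, Slc38a1, Slc38a3 and Slc43a3.
Slc7a11, chr3:50443564-50443863, minus strand: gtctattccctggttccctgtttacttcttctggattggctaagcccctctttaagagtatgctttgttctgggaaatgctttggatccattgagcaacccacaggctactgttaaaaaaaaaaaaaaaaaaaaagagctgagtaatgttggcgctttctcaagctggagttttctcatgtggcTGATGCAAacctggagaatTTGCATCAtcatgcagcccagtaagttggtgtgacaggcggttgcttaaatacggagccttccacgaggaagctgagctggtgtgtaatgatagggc
Slc7a7, chr14:54417895-54418194, minus strand: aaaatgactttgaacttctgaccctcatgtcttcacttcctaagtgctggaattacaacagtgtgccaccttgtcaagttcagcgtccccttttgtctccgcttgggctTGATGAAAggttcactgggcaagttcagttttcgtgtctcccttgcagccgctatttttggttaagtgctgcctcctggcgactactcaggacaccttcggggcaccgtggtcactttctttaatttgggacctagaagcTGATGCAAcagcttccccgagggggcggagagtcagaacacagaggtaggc
Slc1a4, chr11:20332664-20332963, minus strand: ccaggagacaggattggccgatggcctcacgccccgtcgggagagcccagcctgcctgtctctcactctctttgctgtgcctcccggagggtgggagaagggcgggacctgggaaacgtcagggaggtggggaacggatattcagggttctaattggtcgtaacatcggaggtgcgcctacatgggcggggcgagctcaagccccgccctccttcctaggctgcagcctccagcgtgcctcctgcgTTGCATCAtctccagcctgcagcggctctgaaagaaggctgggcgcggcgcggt

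Of the 41 members with a window, 3 held the core (7.32%), against 4.51% of all 27025 genes with one. A gene counts here if any of its windows matches. The 41 members had 62 windows and the 27025 genes had 32851, so members had more windows per gene and the 2 shares are not fully alike. In Slc7a11 the core occurs as TGATGCAA with its first base at -66 from the start, and on the other strand, read as TTGCATCA, at -47. Windows with at least 2 matches were 0.0700% of the 32851 windows. The windows shown were picked for their matches, so this rate does not measure how unusual they are. Slc7a7 has 5 windows, and the one shown holds TGATGAAA at -141 and TGATGCAA at -1. The second of these also lies in the window of another Slc7a7 start. Slc1a4 holds TTGCATCA at -4. A match describes the sequence and does not show that Atf4 binds there, and the windows of Slc38a2 and Slc38a4 without a match say only that these letters are not in them.

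Slc6, the sodium- and chloride-coupled family, was split between a few carriers of general metabolites and a large neural and epithelial remainder. Of 18 members, 4 (22.2%) had at least 1 FPKM, against 56.0% of all genes. The dominant member was Slc6a6, which carries taurine and beta-alanine, at 30.8 FPKM (30.0 to 31.6, 5771 counts), or 55.0% of the family's sum. Slc6a8, the creatine transporter, had 11.3 (10.6 to 11.9, 1225 counts), so Slc6a6 was 2.73 times as high. Slc6a15, a carrier of proline and branched-chain amino acids, had 8.61 (8.01 to 9.21, 827 counts). Slc6a9, the glycine transporter of glia and many other cells, had 2.29 (2.01 to 2.57, 267 counts). In the annotation, 34.9% of the exonic bases of Slc6a9 overlap Ccdc24 on the opposite strand, which had 14 counts. Slc6a5, the neuronal glycine transporter, had no counts. The value of Slc6a9, without its bounds, was 69.4 times the limit of 3 counts for Slc6a5.

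The monoamine carriers had few counts. The noradrenaline transporter Slc6a2 had 0.238 FPKM from 40 counts. The serotonin transporter Slc6a4 had 10 counts and the dopamine transporter Slc6a3 had 5. Outside the monoamine carriers, Slc6a13 had 0.234 FPKM from 16 counts and Slc6a11 had 0.0630 from 8. Few cells with such a transcript and little of it per cell cannot be told apart in bulk RNA. Among the Slc6 carriers of neutral or broad amino acids, Slc6a18 had 0.734 FPKM, Slc6a14 0.502 and Slc6a19 0.141. The brain vesicle carrier Slc6a17 had 0.212. Slc6a20b had 0.317 FPKM from 23 counts and its close copy Slc6a20a had none. Reads shared between similar genes are not recorded, so how such reads were handled for this pair is not known. In the annotation, 28.5% of the exonic bases of Slc6a20b overlap Sacm1l, a gene on the opposite strand with 18.1 FPKM. From Slc6a18 down to Slc6a3, the bounds of all neighbours overlap, so the order within this low group is not settled.

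Slc1 holds neutral amino acid exchangers and glutamate carriers, and the exchangers led it. Of 6 members, 3 (50%) had at least 1 FPKM, against 56.0% of all genes, and these 3 were close to each other. The dominant member was Slc1a5, an exchanger of glutamine and other neutral amino acids, at 9.76 FPKM (9.19 to 10.3, 1195 counts), which was 37.9% of the family's sum. Slc1a4, an exchanger of alanine, serine and cysteine, had 7.99 (7.49 to 8.48, 1034 counts). Slc1a3, a glutamate and aspartate carrier best known from astrocytes, had 6.73 (6.26 to 7.19, 840 counts). The bounds of these 3 do not overlap. The remaining glutamate carriers among the 6 members were below 1 FPKM. The glutamate carrier Slc1a1 is not among these members and was not analysed here. The cerebellar and retinal carriers Slc1a6 and Slc1a7 had 0.592 and 0.570, with overlapping bounds. Slc1a2, the main glutamate carrier of forebrain astrocytes, had 0.0906 from 27 counts, and Slc1a3 was 74.2 times as high.

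Slc43 and Slc36 were the low families. All 3 Slc43 members had at least 1 FPKM, against 56.0% of all genes, and none reached 5, against 38.3%. Slc43a1 and Slc43a2, carriers of large neutral amino acids, had 3.83 (3.43 to 4.22) and 3.14 (2.89 to 3.39), and Slc43a3, which is known as a carrier of purine bases, had 1.96 (1.64 to 2.28). Slc43a1 was the dominant member by FPKM, with 42.9% of the sum, but Slc43a2 had more counts, 620 against 374, on a longer model. In Slc36 the lysosomal proton-coupled carrier Slc36a1 held 82.2% of the family's sum, at 2.11 FPKM (1.87 to 2.35, 312 counts). Slc36a4 had 0.444 from 24 counts.

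**Figure D2:**
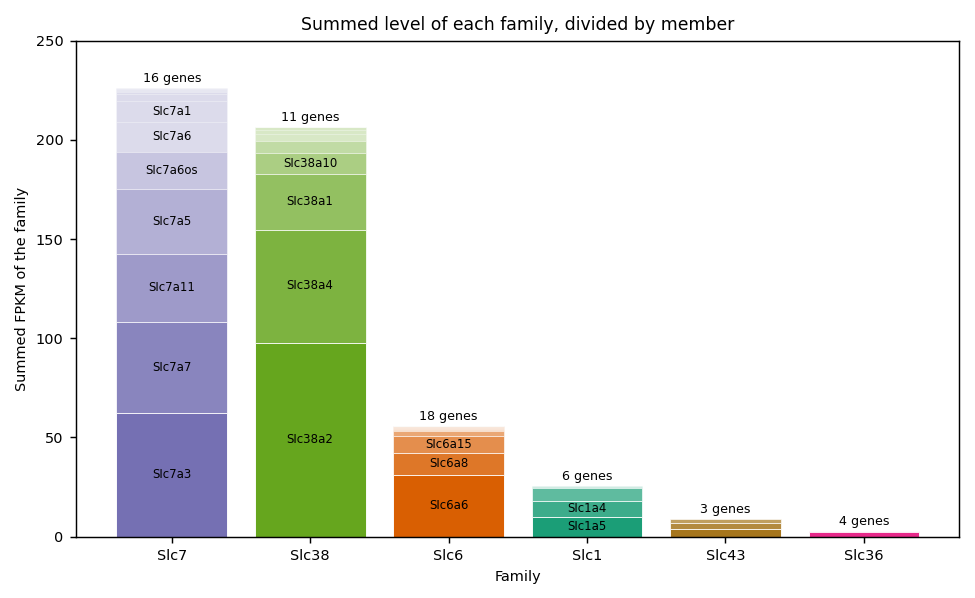
Summed FPKM of each family, with 1 block per gene and the dominant gene at the base. Slc7 (226) and Slc38 (207) stand far above Slc6 (55.97), Slc1 (25.7), Slc43 (8.93) and Slc36 (2.57). The Slc7 bar includes Slc7a6os (18.9), which is not a transporter. The base block is a larger part of Slc38 than of Slc7.

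Families differed in how far a single gene led. The lead of the dominant member over the next was 4.76-fold in Slc36, 2.73-fold in Slc6, 1.72-fold in Slc38, 1.36-fold in Slc7, 1.22-fold in Slc1 and 1.22-fold in Slc43. In each of the 6 families the bounds of the first and second members did not overlap, which covers counting error only. On the model length the leads were 4.77-fold in Slc36, 3.04-fold in Slc6, 1.65-fold in Slc1 and 1.64-fold in Slc43. They were 1.41-fold in Slc38 and 1.20-fold in Slc7, so the order of Slc38, Slc7, Slc1 and Slc43 depends on the length used. By counts Slc7a11 led Slc7 and Slc43a2 led Slc43. Over all families, 44 pairs of neighbours in the order had more than 3 counts for the lower gene, and in 17 of them the bounds overlapped.

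Grouped by substrate, the levels of small neutral, glutamine and cationic carriers were the highest. These lists overlap in Slc38a7 and were drawn up with earlier results of these data known. The counts below stand against 56.0% of all genes at 1 FPKM or more, and several lists lie near that share. Of 9 carriers of small neutral amino acids and glutamine, 7 had at least 1 FPKM (median 7.99, sum 209). Slc38a2 was 10.02 times Slc1a5 there. Of 7 cationic carriers 4 did (median 10.5, sum 135). Of 4 carriers of large neutral amino acids 3 did, and Slc7a5 was 8.56 times Slc43a1. Of 6 measured acidic and cystine carriers 2 did, Slc7a11 and Slc1a3, and the first was 5.07 times the second. Of 7 lysosomal and proton-coupled carriers 4 did, with Slc38a7 highest, and the bounds of Slc38a9 and Slc36a1 overlap. Among Slc6 carriers of transmitters, osmolytes or creatine, 3 of 11 did, and among its neutral and broad carriers 1 of 7 measured.

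**Figure D3:**
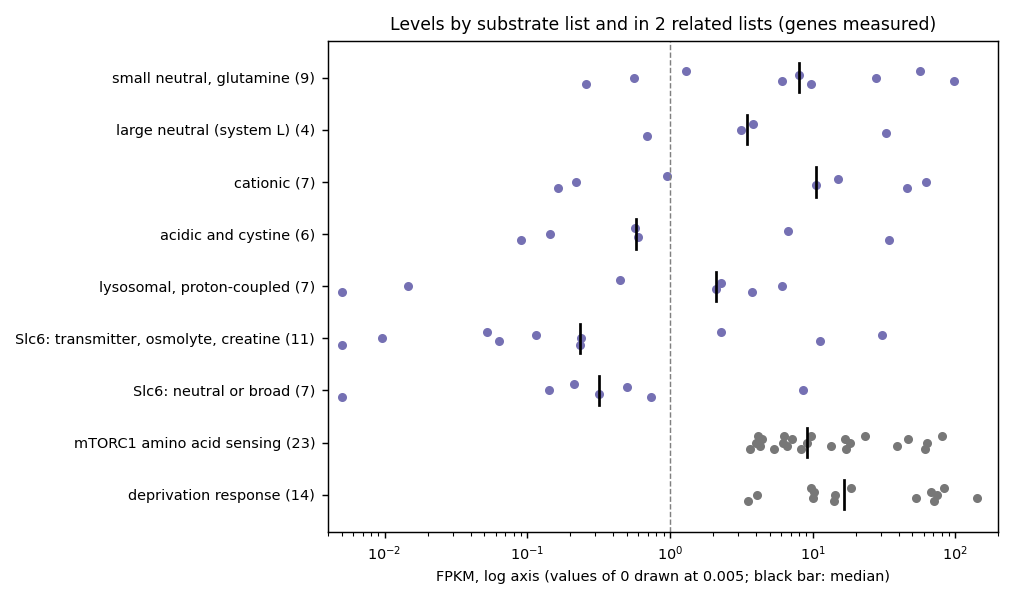
FPKM on a log axis of the genes in 7 substrate lists of transporters (purple) and 2 lists of related genes (grey), with medians as black bars and the number of genes measured in brackets (1 is not drawn). Each transporter list has genes on both sides of the dashed line at 1 FPKM, and no gene of the sensing and deprivation lists lies below 3.50.

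The genes that sense amino acids were present throughout. All 23 measured genes of mTORC1 sensing (28 listed) reached 1 FPKM, against 56.0% of all genes. Their values ran from 3.63 upwards around a median of 9.15, where that of all genes was 1.94. The GTPase Rheb, which activates mTORC1, had 80.0 FPKM and the Rag GTPase Rraga 46.6. The leucine sensor Sesn2 had 18.2, and the kinase Mtor itself 6.56. All 14 measured genes of the amino acid deprivation response (16 listed) also reached 1 FPKM (median 16.5), against the same 56.0% of all genes. Atf4 had 83.5 FPKM (81.1 to 85.8), the asparagine synthetase Asns, a classical target, 73.8, and the cystathionine cleaving enzyme Cth 53.3. Trib3 had 14.3, Ddit3 10.1 and Chac1 10.3. Without a second condition, these levels do not show whether the response was active.

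The AU-rich heptamer TATTTAT, a core of the elements to which the Zfp36 family binds, was sought in the 3′ untranslated regions of the members on the transcript strand. Regions came from the GENCODE M21 transcript nearest in length to the table's model, where the lengths agreed within 10%, which gave 54 of 58 members (not Slc6a19, Slc6a20a, Slc6a20b and Slc7a6os). The heptamer was in 13 of the 54 (24.1%), against 23.9% of 12919 genes treated alike. The regions of the members were longer, with a median of 1262 nt against 755. Of the 26 matched members at 1 FPKM or more, 7 held it (26.9%), against 27.9% of all genes at that level, and of the 28 below, 6 (21.4%). Among the dominant members of the 6 families, Slc38a2 alone held it. By family it was in 4 of 11 Slc38 genes, 2 of 6 in Slc1, 3 of 15 in Slc6, 3 of 15 in Slc7, 1 of 4 in Slc36 and none of 3 in Slc43.

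The sites of the members with at least 10 FPKM are shown because these are the abundant transporter transcripts that carry the letters a Brf protein could recognise. Each line gives 29 bases of the transcript, 5′ to 3′, with the heptamer in capitals and coordinates on GRCm38. All lie in the 3′ untranslated region of their gene.
Slc38a2, chr15:96687931-96687959, minus strand: aactgtactgtTATTTATagagcagcatt
Slc38a2, chr15:96687885-96687913, minus strand: ctatttttcaaTATTTATgataaactgta
Slc38a1, chr15:96576276-96576304, minus strand: tgaattgtataTATTTATtttgctttaca
Slc38a1, chr15:96574572-96574600, minus strand: tatttgcagcaTATTTATttgcaggaagc
Slc38a10, chr11:120103963-120103991, minus strand: ctcttgaaataTATTTATtacaattaaat
Slc7a6, chr8:106197588-106197616, plus strand: ctgtatgtcatTATTTATtgatatttaat

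The 2 sites of Slc38a2 start at positions 2179 and 2225 of a region of 2735 nt, in its last part. Those of Slc38a1 start at 418 and 2122 of 5293 nt. The site of Slc38a10 starts 21 nt before the end of its region. The site of Slc7a6 is the only one of these that extends to the nonamer TTATTTATT, the longer form preferred by the family. The nonamer, which contains the heptamer, was also in the low member Slc1a7, making 2 of 54 members (3.70%) against 6.12% of all genes. The long region of Slc7a11, 7364 nt, held no heptamer. Because the table is assigned to no group, these matches could not be set against enrichment in the immunoprecipitate.

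**Figure D4:**
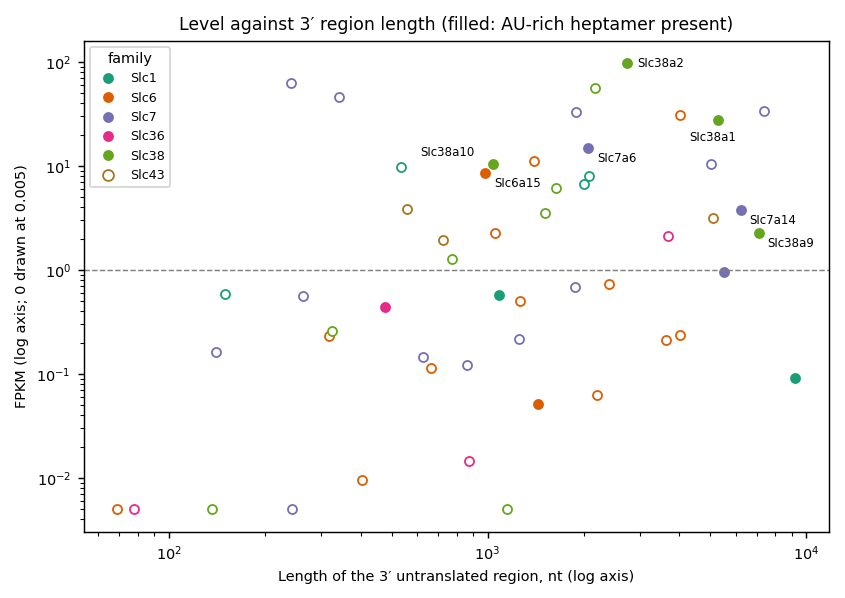
FPKM of 53 of the 54 matched members against the length of the 3′ untranslated region, both on log axes, with filled points for genes that hold the heptamer. Filled points occur from 476 nt (Slc36a4) to 9250 nt (Slc1a2), at low and at high FPKM, and those at 1 FPKM or more are named.

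The deposited FPKM of a gene rests on the effective length given to it by the authors' quantification. Over the members the effective length was a median of 1.25 times the model length, and over all genes 1.27 times. Among members the ratio ran from 0.650 for Slc7a12 to 1.96 for Slc1a5. With the model length, 46 members were higher and 6 lower, and none crossed 1 FPKM. The dominant member stayed first in each of the 6 families. The order changed below it, most visibly in Slc7, where Slc7a5 (ratio 1.69) had 55.5 FPKM on the model length and Slc7a11 (ratio 0.849) had 28.99. By counts, Slc7a11 led Slc7 with 26.3% of the family's counts and Slc7a3 had 16.7%.

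**Figure D5:**
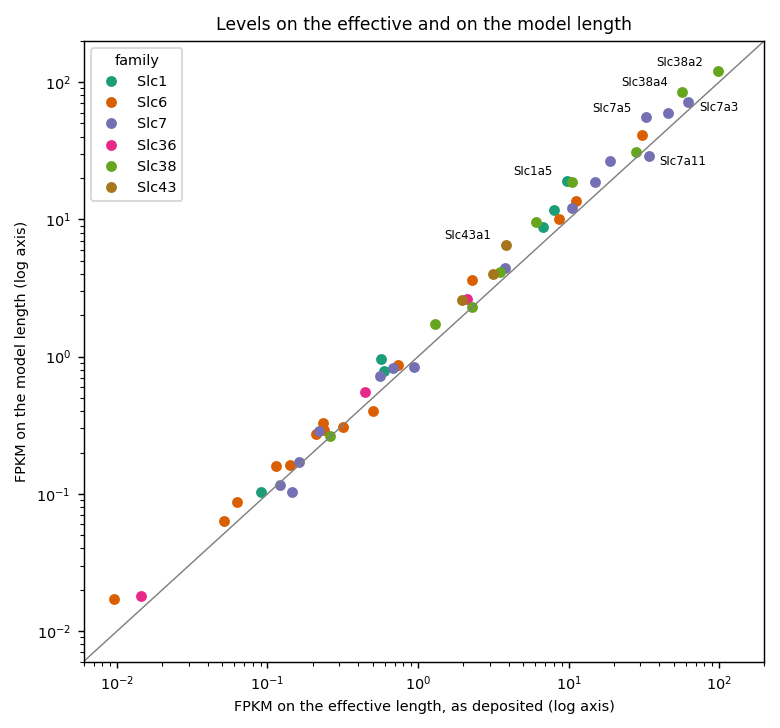
FPKM on the model length against FPKM as deposited, both on log axes, for 51 members with counts, with a line of equality. Most points lie above the line, Slc1a5 and Slc7a5 farther than Slc38a2 and Slc7a3, and Slc7a11 lies below it.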

How the data were processed

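RNA sequencing of 6 libraries is described in the labels. The tools eXpress 1.1.1, Bowtie 1.1.2 and CASAVA 1.8.2 and the build mm9 are named, per the submitters' processing notes. Their settings are not given in the sources. Read counts were deposited by the authors, total and unique, and the 2 are equal in all rows, so no reads shared between similar genes are recorded. FPKM with lower and upper bounds was deposited by the authors, per the file headers. Other columns were not used. One row without a gene, equal to the total of 22625281 counts, was left out.

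Computed here were FPKM on the model length, family sums and shares, Wilson intervals and motif matches, with no test. The motif search and threshold code was tested on simulated data. Members were found by symbol, and members and lists were chosen with earlier results of these data known. The value of 1 member is not reported here. The other members are named with values or counts, and for list genes by highest value or role. The GENCODE and RefSeq annotations are on GRCm38 and not mm9, so no coordinate was transferred. The planned protein comparison was not run. The software was matplotlib 3.10.9, scipy 1.17.1, pandas 2.3.3 and numpy 2.4.6 under Python 3.11.15.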

Additional observations from a re-analysis of the deposited data

How the results depend on the processing

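No paired analysis was possible because no column names a replicate or a group. For that reason the planned comparison of Brf immunoprecipitate with IgG, and its settings that leave out a library or change the pseudocount, were not run. The 7 results on how many genes had at least 1 FPKM (all members and each of the 6 families) were the same with the model length, with a minimum of 10 counts and with the lower bound in place of the value. At a threshold of 5 FPKM, 18 members remained (31.0%, against 38.3% of all genes), with 5 in Slc38 and 0 in both Slc36 and Slc43. The share of the dominant member moved with the scale, which follows from the lengths by arithmetic. With the model length it was 46.2% in Slc1, 57.4% in Slc6, 25.5% in Slc7, 44.0% in Slc38 and 49.8% in Slc43. As a share of counts it was 68.7% in Slc6, 16.7% in Slc7, 92.6% in Slc36, 43.8% in Slc38 and 32.6% in Slc43. Without Slc7a6os, a choice made after the data were seen, the share of Slc7a3 was 30.1%. Members with few counts have wide bounds, and the spread between libraries is not known.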

Other observations

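Amino acid carriers outside these families were also led by a few genes. Of 16 listed, all measured, 9 reached 1 FPKM (median 2.95), a share close to the 56.0% of all genes that did (median 1.94). Slc25a13, a mitochondrial exchanger of aspartate and glutamate, was highest at 29.8 FPKM (28.6 to 31.1, 2280 counts), and its paralogue Slc25a12 had 7.40. The mitochondrial ornithine carrier Slc25a15 had 10.3, the glycine carrier Slc25a38 6.99 and the glutamate carrier Slc25a22 5.83. Of the lysosomal carriers, Slc15a4 had 5.49, the cystine exporter Ctns 4.02 and the cationic exporter Pqlc2 2.77. The aromatic amino acid carrier Slc16a10 had 3.14. The vesicular carriers of neurons were below 1 FPKM, with Slc17a8 at 0.690, Slc17a7 at 0.605, Slc17a6 at 0.0584 and Slc32a1 at 0.0576.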
